A study of Mus musculus with 58 samples.

Results

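PCGF3 and PCGF5 were degraded in differentiating female mouse cells, and chromatin-associated RNA was sequenced (ChrRNA-seq) on day 6 of Xist induction under neuronal precursor (NPC) differentiation conditions. The comparison holds 4 of the 58 libraries of the series, chosen by their titles: untreated replicates 1 and 2 and dTAG-13-treated replicates 1 and 2 of the FKBP12-PCGF35 line. All 4 cultures came from 1 engineered line, derived from an interspecific XX embryonic stem cell (ES) line. That line carries domesticus-type (Dom, 129S) and castaneus (Cast) chromosomes, with a TetOn promoter driving Xist on the Dom X. The study names a recombination event in it, owing to which part of the X-linked genes could not be evaluated by allele. Every copy of PCGF3 and PCGF5 carried an N-terminal FKBP12 F36V degron, so the untreated cells carried the tags too. All 4 cultures received doxycycline at 1 μg/mL for 6 days in N2B27 medium. Treated cultures also received dTAG-13, which per the labels was used at 100 uM (a unit that could not be checked here and is high for this compound), from 12 h before doxycycline onwards. Treated and untreated cultures of the same replicate number were grown in parallel. The ES cells had been kept on mouse fibroblast feeders, which were removed by pre-plating before differentiation.

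Xist RNA coats the X chromosome it is transcribed from and silences its genes in cis. The RNA recruits the SPEN protein through its A-repeat and, through hnRNPK, a variant PRC1 complex that holds PCGF3 or PCGF5 and ubiquitylates histone H2A, after which PRC2 methylates histone H3. The dTAG-13 molecule brings a tagged protein to an E3 ligase, which leads to its degradation. The comparison asks how much silencing is reached after 6 days without PCGF3/5, and which other genes differ.

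The untreated libraries held 15865736 and 9186926 fragments and the treated libraries 13217426 and 12434779, of which 45.9% to 48.0% could be assigned to an allele. Autosomal allelic fragments were 50.0% to 51.4% Dom. The allelic ratio of a gene is its Dom fragments divided by its Dom plus Cast fragments, and it was examined in the X-linked genes for which a ratio was deposited (153 whose ratio passed the test on day 6 and 93 whose ratio did not), which lie between positions 6047506 and 103396118 of the X chromosome (mm10), all centromeric to Xist. The median gene among them had 130 and 70 allelic fragments in the untreated libraries and 132 and 120.5 in the treated ones. Telomeric to Xist, 0.917% to 1.19% of allelic fragments were Dom on day 6 and 0.766% to 0.869% in untreated ES cells on day 0, so that side of the X carries no allelic information in this line. Replicates are separate cultures of 1 line, so the tests measure the spread between such cultures and not between clones.

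The degron acts on protein, and RNA levels of the tagged genes check nothing about it. Levels in CPM are fragment counts scaled to library size and to the factor of the TMM normalization, unless another scaling is stated. Pcgf3 had 90.6 and 76.4 CPM untreated and 77.05 and 83.8 CPM treated, and Pcgf5 had 60.9 and 96.2 CPM untreated and 51.4 and 97.2 CPM treated. Neither differed (log2 fold changes of -0.06 and -0.11, adjusted p = 0.80 and 0.59 by edgeR's quasi-likelihood test). Xist (X:103460372-103483233, minus strand) had 10667 and 13847 CPM untreated and 7866 and 11717 CPM treated. It was lower with dTAG-13 in each pair, but the ranges overlapped and the change was not significant (log2 fold change -0.34, SE 0.13, adjusted p = 0.14).

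X-linked genes kept more RNA from the Dom X, the X that is silenced, in the treated cultures. The median allelic ratio of these genes was 0.0649 and 0.0833 in the untreated libraries and 0.225 and 0.228 in the treated libraries. The difference of the group means was 0.153, and the groups did not overlap. An exact two-sided permutation test over 2 libraries against 2 gave p = 0.333, the smallest p that its 6 arrangements allow. In the uninduced ES cells of the same line, the median ratio ran from 0.509 to 0.512 over the 4 libraries, treated and untreated. Ratios in both arms were below those of uninduced cells. The median gene retained 14.7% of its day 0 ratio in untreated cells and 45.9% in treated cells. Below 50% of the day 0 ratio were 237 genes without dTAG-13 and 146 with it, and above 90% of it were 1 and 5 genes. A ratio under 0.1 was found for 165 and 135 genes in the untreated libraries and for 37 and 39 genes in the treated ones.

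**Figure D1:**
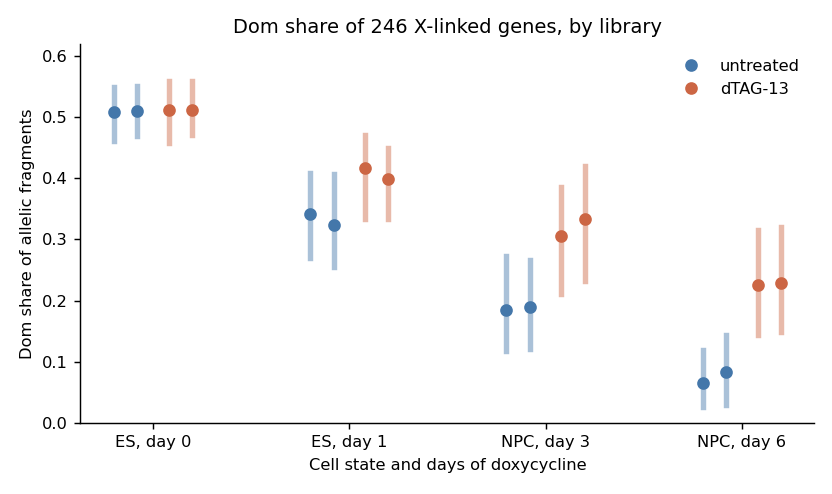
Allelic ratio (Dom share of allelic fragments, vertical axis) of the X-linked genes with a deposited ratio in the 16 libraries of the FKBP12-PCGF3/5 line, by cell state and days of doxycycline; points are medians over genes, bars run from the lower to the upper quartile, and each point is 1 library. On NPC day 6 the untreated medians are 0.0649 and 0.0833 and the treated medians 0.225 and 0.228, whereas all 4 libraries lie near 0.51 in ES cells on day 0.

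Gene by gene, 153 allelic ratios rose, 0 fell and 93 did not pass (edgeR's quasi-likelihood test on the fragments of both alleles, Benjamini-Hochberg adjusted over all 13261 genes tested, threshold 0.05). On autosomes, 0.508% of 12793 genes rose and 0.453% fell, and over all genes tested 1.66% rose. With no adjustment, 199 passed a p of 0.05. The median log2 odds ratio of Dom against Cast, treated against untreated, was 1.89 over the X-linked genes with a ratio and 0.00 over the autosomal genes. It was 1.80 with the 15 genes that had 0 Dom fragments in both untreated libraries set at the bound that 3 fragments over the group allow. The ratios of 222 genes did not overlap between the groups and were higher with treatment, a pattern shown by 18.3% of autosomal genes.

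The number of genes called followed the depth. Among the 99 genes with at least 100 allelic fragments in every library, 96 rose and the treated ratios of all 99 lay above the untreated ones. Divided by their fewest allelic fragments into groups of 82 genes, 16 of the shallowest, 56 of the middle and 81 of the deepest genes rose, while the median difference of the ratio was 0.148, 0.139 and 0.148. The 21 genes that were not higher in both pairs had a median of 8 allelic fragments in their shallowest library, and at most 62. For the 93 genes not called, the test does not show that the ratio stayed the same. Leaving out 1 library or 1 pair left between 78 and 129 genes called, with the lowest count without replicate 1 of both arms. Without the term for pairs, 140 genes rose.

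**Figure D2:**
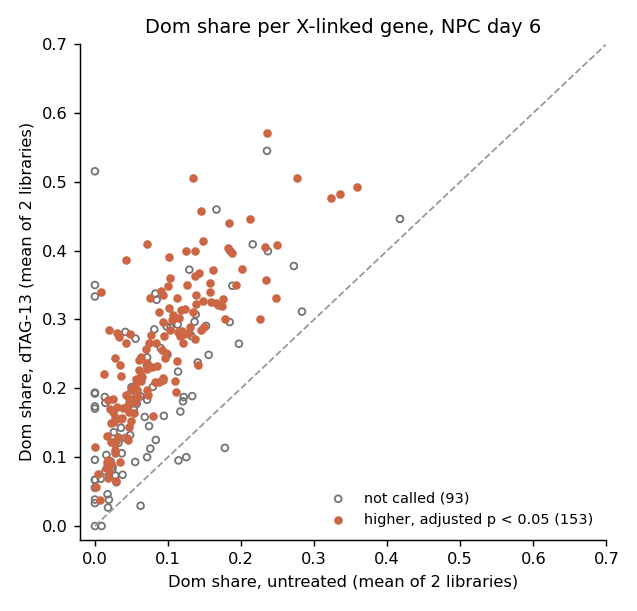
Allelic ratio of each X-linked gene with a deposited ratio on NPC day 6, untreated (horizontal axis) against dTAG-13 (vertical axis), each the mean of 2 libraries; filled points are the 153 genes with an adjusted p under 0.05, open points are the other 93, and the dashed line marks equal ratios. Nearly every gene with enough fragments lies above the line, at widely different heights.

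Of 96 genes that were called, did not overlap between arms and had at least 100 allelic fragments in every library, 8 are named here. Genes with fewer fragments were not ranked, and some of them rose by more. The 8 had the largest rise of the ratio among the 96 and reached between 48.6% (F8) and 82.7% (Rbm3) of their day 0 ratio. The mean untreated ratio was 0.0189 in F8, and in the others it lay above the 0.0718 of the median gene. F8, the gene of coagulation factor VIII (X:75172714-75380041, minus strand), had ratios of 0 and 0.0377 untreated and 0.263 and 0.308 treated (log2 odds ratio 4.55, SE 0.51, adjusted p = 2.12e-14). The 95% Wilson intervals of its single libraries, which cover counting error only, were 0 to 0.0256, 0.0148 to 0.0930, 0.200 to 0.337 and 0.227 to 0.402. The choice of F8 required both treated ratios to lie above both untreated ones, and the intervals show a gap beyond counting error. Rbm3, which encodes a cold-induced RNA-binding protein (X:8138974-8145802, minus strand), rose from 0.161 and 0.205 to 0.418 and 0.463 (log2 odds ratio 1.83, SE 0.11), against 0.520 in untreated ES cells on day 0. Hprt, the purine salvage enzyme, rose from 0.106 and 0.0739 to 0.335 and 0.346, and Zfp182, a zinc finger gene, from 0.0928 and 0.108 to 0.351 and 0.347. Maoa, monoamine oxidase A, rose from 0.0836 and 0.103 to 0.327 and 0.343. These 3 genes had similar ratios in each arm. That their arms did not overlap was a condition of their choice. Shroom4, a regulator of the actin cytoskeleton, rose from 0.115 and 0.137 to 0.338 and 0.363, Htatsf1, a transcription and splicing factor, from 0.147 and 0.217 to 0.444 and 0.363, and Tspan7, a tetraspanin, from 0.111 and 0.114 to 0.349 and 0.312. Over the genes named for their rise, their high untreated ratio or their small change, single-library Wilson intervals extended by 0.00502 to 0.0874 to either side.

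Genes that were least silenced in untreated cells rose as well. Kdm6a, which encodes an H3K27 demethylase and is known to escape X inactivation (X:18162666-18279358, plus strand), had ratios of 0.333 and 0.384 untreated and 0.485 and 0.498 treated (log2 odds ratio 0.80, SE 0.06, adjusted p = 6.39e-25). The treated ratios approached the day 0 value of 0.556. The ribosomal protein gene Rpl10 rose from 0.333 and 0.338 to 0.479 and 0.487, and Utp14a, which acts in ribosomal RNA processing, from 0.313 and 0.333 to 0.477 and 0.475. The proton pump accessory gene Atp6ap2 rose from 0.255 and 0.244 to 0.427 and 0.390, and the transcription factor gene Zfx from 0.191 and 0.276 to 0.347 and 0.368. The translation initiation factor gene Eif2s3x had the smallest change of these 6 genes, from 0.247 and 0.248 to 0.307 and 0.354 (log2 odds ratio 0.56, SE 0.17, adjusted p = 0.041). Of the other known escape genes with a ratio, Ddx3x, an RNA helicase, rose from 0.158 and 0.229 to 0.342 and 0.358, and 1810030O07Rik from 0.165 and 0.302 to 0.378 and 0.434. Shroom4, named above for its rise, is listed as a known escape gene too.

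At the other end stood genes with a small change of the ratio. Among the 31 genes with at least 400 allelic fragments in every library, the smallest change of the ratio was found in Dmd, the dystrophin gene, which spans X:82948869-85205050 (plus strand). Its ratios were 0.0129 and 0.0227 untreated and 0.0845 and 0.0560 treated. The glypican genes Gpc4 and Gpc3, which lie beside each other, rose from 0.0193 and 0.0189 to 0.0853 and 0.0744 and from 0.0226 and 0.0226 to 0.0841 and 0.0946. Eda, the ectodysplasin ligand, rose from 0.0237 and 0.0156 to 0.0906 and 0.0876, and Hs6st2, a heparan sulfate sulfotransferase, from 0.0271 and 0.0275 to 0.106 and 0.106. The PDZ-domain gene Pdzd4 rose from 0.0730 and 0.0858 to 0.144 and 0.175. All 6 passed the test, and none overlapped between arms. Nearly all deep genes with a ratio did the same. Of the 99 with at least 100 allelic fragments in every library, 96 rose and 99 did not overlap. Higher treated ratios without overlap were found in 18.3% of autosomal genes. The treated ratios were 16% of the day 0 ratio in Dmd and 29.2% in Pdzd4, the lowest and the highest of the 6. Their log2 odds ratios, 1.13 to 2.24, covered that of Rbm3, since a small difference near a ratio of 0 is a large change of the odds.

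The size of the difference depended on the scale in the same way across all genes with a ratio. Ordered by their untreated day 6 ratio in groups of 82, the median difference of the ratio was 0.0947, 0.151 and 0.160 from the most to the least silenced genes, whereas the median log2 odds ratio was 2.53, 1.97 and 1.41. Spearman correlations across these genes with the untreated ratio were 0.289 for the difference and -0.640 for the log2 odds ratio. The untreated ratio enters both measures, and genes share their libraries, so these are descriptions. Ordered by the untreated day 3 ratio, which comes from other libraries, the median difference was 0.0833, 0.152 and 0.181 and the median log2 odds ratio 2.14, 2.00 and 1.57.

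Distance from Xist gave an order of the levels in both arms. In the 82 genes nearest to Xist, the 82 in the middle and the 82 farthest away, the median untreated ratio was 0.0484, 0.0632 and 0.115 and the median treated ratio 0.184, 0.199 and 0.296. The median difference was 0.121, 0.133 and 0.168, and 50, 55 and 48 of the genes rose. On the log2 odds scale the groups gave 1.89, 2.11 and 1.64, with no order by distance (Spearman rho -0.042, against 0.301 for the difference of the ratio). Chic1, the gene with a ratio that lies nearest to Xist (X:103356475-103396118, plus strand), rose from 0.0390 and 0.0508 to 0.186 and 0.165. Nap1l2, which also lies in the X inactivation centre, had as few as 8 allelic fragments in a library, with ratios of 0 and 0.125 untreated and 0 and 0.0588 treated.

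**Figure D3:**
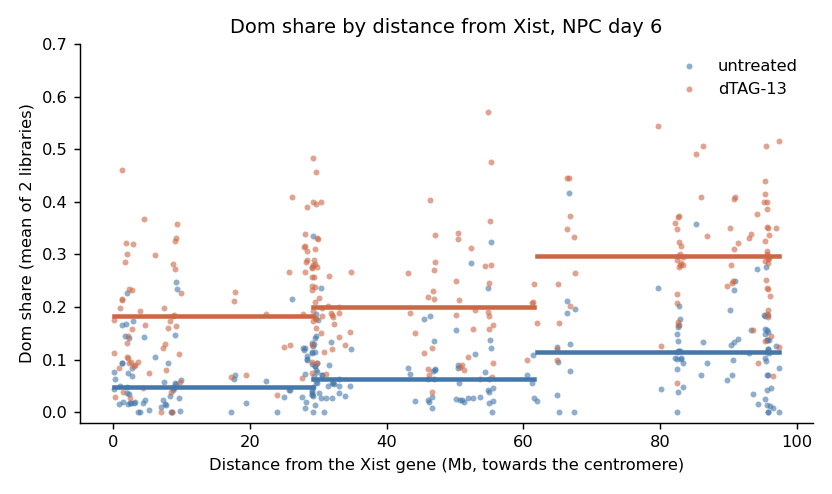
Allelic ratio on NPC day 6 (vertical axis, mean of 2 libraries) of the X-linked genes with a deposited ratio against their distance from the Xist gene towards the centromere (horizontal axis, Mb), untreated and dTAG-13; the horizontal lines are medians of 82 genes each. The treated medians, 0.184 to 0.296, lie above the untreated medians, 0.0484 to 0.115, at every distance, and both are highest far from Xist.

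Relative to earlier time points of the same line, measured in other libraries, the difference on day 6 was the largest on the odds scale, with median log2 odds ratios of 0.02 in uninduced ES cells, 0.39 on ES day 1, 0.94 on NPC day 3 and 1.89 on NPC day 6. Of the genes with a ratio, 0 passed the test in uninduced ES cells by edgeR (15 at an unadjusted p of 0.05), against 0.294% of all genes. After 1 day of doxycycline in ES cells 49 rose (0.422% of all genes), and on NPC day 3 112 rose (1.09% of all genes). The test of the difference between days found a larger effect of dTAG-13 on day 6 than on day 3 in 39 genes and a smaller one in 0, against 0.437% of all genes tested in either direction. Against ES day 1 it was larger in 100 genes and smaller in 0, against 1.13% of all genes. Both counts are on the odds scale. On the ratio itself, limma called 0 of these genes in either comparison (34 and 87 at an unadjusted p of 0.05). The mean of the library medians was 0.187 untreated and 0.320 treated on day 3, and 0.0741 and 0.227 on day 6. Rbm3 had a mean ratio of 0.395 untreated and 0.471 treated on day 3, and 0.183 and 0.440 on day 6. Pola1, a subunit of DNA polymerase alpha, had 0.184 and 0.312 on day 3 and 0.0607 and 0.227 on day 6. In both genes the untreated ratio fell between the days by more than the treated one. Ratios in treated cells still fell with time: 230 genes were lower on day 6 than on day 3, although 195 were higher on treated day 6 than on untreated day 3.

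The additional RNA came from the Dom X. Summed over the genes with a ratio, the Dom level was 493 and 634 CPM untreated and 1658 and 1681 CPM treated, scaled to all fragments of the library, a 2.96-fold difference of the means. The Cast level was 5234 and 5164 CPM untreated and 5211 and 5069 CPM treated, a change of -1.13%, within the spread of the libraries. Tested per gene, the Dom level of 149 genes rose and of 0 fell, with a median log2 fold change of 1.84, or 1.76 with the 15 genes without untreated Dom fragments at their bound. On autosomes 1.63% of genes had a higher and 3.41% a lower Dom level. The Cast level of 13 genes rose and of 6 fell, with a median of -0.0014, against 1.61% and 3.35% of autosomal genes. Without the term for pairs, 113 Dom levels and 1 Cast level were called, and leaving out 1 library or pair gave 39 to 106 and 0 to 4.

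Total RNA of X-linked genes was higher as well. The total level of the genes with a ratio summed to 17118 and 17484 CPM untreated and 19860 and 20280 CPM treated, 16% more. Over the 593 X-linked genes tested, 102 rose and 21 fell, with a median log2 fold change of 0.27, while 438 of 15060 autosomal genes rose and 653 fell with a median of 0.00 (edgeR, adjusted over 15654 genes; 3.45% of all genes rose and 4.31% fell). Chromosome medians of the 19 autosomes ran from -0.03 to 0.06. Among the genes with a ratio 64 rose and 2 fell. Telomeric to Xist 29 of 226 genes rose and 16 fell, with a median of 0.19. These total counts depended on the treatment of the pairs: without the term for pairs 8 X-linked and 52 autosomal genes were called, and leaving out 1 library or pair left 0 to 27 and 1 to 275. The X-linked genes with a called total included Hprt, with 51.1 and 46.6 CPM untreated and 74.9 and 72.0 CPM treated (log2 fold change 0.59, SE 0.08), and Utp14a, with 138 and 130 CPM untreated and 196 and 195 CPM treated. Kdm6a had 391 and 511 CPM untreated and 555 and 573 CPM treated, and its total did not pass the test (adjusted p = 0.060).

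X-linked regulators of pluripotency and MAPK signalling are of interest because XX cells with both X chromosomes active are known to leave pluripotency slowly. The list holds 10 genes, of which Sh3bp2 is not among the X-linked genes with a ratio. Over all genes, 7.76% had a called total in either direction. Of the 10 only Klhl13, a ubiquitin ligase adaptor (X:23219270-23365082, minus strand), had a changed total, from 194 and 222 to 391 and 382 CPM (log2 fold change 0.89, SE 0.09, adjusted p = 0.00074 by edgeR). Its allelic ratio rose from 0.0425 and 0.0474 to 0.126 and 0.125, and its Cast level rose as well (log2 fold change 0.75, SE 0.12). RNA from both chromosomes was thus higher. The kinase gene Araf rose in ratio from 0.140 and 0.184 to 0.352 and 0.390, and the cohesin gene Stag2 from 0.0372 and 0.0750 to 0.249 and 0.167, with totals that did not pass the test (adjusted p = 0.37 and 0.60). Elk1, an ERK-activated transcription factor, had ratios of 0.0959 and 0.132 untreated and 0.187 and 0.262 treated and did not pass (adjusted p = 0.095). Dusp9, an ERK phosphatase, had 21 allelic fragments in its shallowest library, and a change was not detectable at this depth.

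Germline genes, which encode proteins of meiosis and of germ cells and are repressed in somatic cells, were higher in treated cells. Of 16 tested, 7 rose and 0 fell, against 3.45% and 4.31% of all genes, and the median log2 fold change of the 16 was 1.03, against 0.01 over all genes tested. One of the 16, Taf7l, lies on the X and was not called (log2 fold change 0.44), and the median of the 15 autosomal members was 1.1. Smc1b, the meiotic cohesin subunit (15:85064688-85131957, minus strand), had 18.6 and 14.4 CPM untreated and 58.9 and 50.2 CPM treated (log2 fold change 1.72, SE 0.10, adjusted p = 3.63e-05). On day 0 its mean was 121 CPM untreated and 132 CPM treated, so treated cells on day 6 lay between uninduced ES cells and untreated day 6 cells. Dazl, a germ cell RNA-binding protein, rose from 3.45 and 2.93 to 10.1 and 8.04 CPM, and Hormad1, a protein of the meiotic chromosome axis, from 7.26 and 7.22 to 17.8 and 22.5 CPM. The other called members were Stk31 (log2 fold change 1.1), Mov10l1 (0.96), Mael (1.29) and Sycp1 (1.36). Not called were among others Ddx4, with 9.66 and 12.3 CPM untreated and 17.9 and 14.3 CPM treated, and Tdrd1, with 3.26 and 4.40 CPM untreated and 4.82 and 4.73 CPM treated. Without the term for pairs 4 of the 16 were called with a median of 1.02, and 2 and 5 were called without replicate 1 and without replicate 2 of both arms.

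Members of this group moved together, and the promoters of 4 called germline genes that hold a motif described here are shown. Many germline gene promoters are known to carry the E-box core CACGTG or the E2F-type element GCGGGAA, through which a PRC1 complex with PCGF6, MGA and E2F6 represses them. The sequences are from RefSeq (GRCm38.p6), 300 bases from 250 before to 50 after the annotated start, written 5′ to 3′ on the strand of the gene, with CACGTG and with GCGGGAA or its reverse complement TTCCCGC in capitals.
Hormad1 (chr3:95559427-95559726, plus strand): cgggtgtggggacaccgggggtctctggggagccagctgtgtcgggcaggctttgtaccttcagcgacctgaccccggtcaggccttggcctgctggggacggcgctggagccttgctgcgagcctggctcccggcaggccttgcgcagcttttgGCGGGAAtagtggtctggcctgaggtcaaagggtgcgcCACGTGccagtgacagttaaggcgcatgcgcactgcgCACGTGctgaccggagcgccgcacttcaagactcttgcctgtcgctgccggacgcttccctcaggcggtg
Sycp1 (chr3:102936051-102936350, minus strand): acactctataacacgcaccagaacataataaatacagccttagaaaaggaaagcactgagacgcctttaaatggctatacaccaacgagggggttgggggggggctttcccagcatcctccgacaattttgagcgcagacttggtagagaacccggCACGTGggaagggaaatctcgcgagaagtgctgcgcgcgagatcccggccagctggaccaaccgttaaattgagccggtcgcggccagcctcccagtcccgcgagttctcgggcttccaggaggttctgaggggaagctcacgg
Mov10l1 (chr15:88982744-88983043, plus strand): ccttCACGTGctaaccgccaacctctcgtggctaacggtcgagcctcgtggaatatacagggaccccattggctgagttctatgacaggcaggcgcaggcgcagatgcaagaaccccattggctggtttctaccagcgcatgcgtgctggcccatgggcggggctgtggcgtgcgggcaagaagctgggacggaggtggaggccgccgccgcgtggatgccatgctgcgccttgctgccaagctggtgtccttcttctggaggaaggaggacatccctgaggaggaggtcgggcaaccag
Smc1b (chr15:85131908-85132207, minus strand): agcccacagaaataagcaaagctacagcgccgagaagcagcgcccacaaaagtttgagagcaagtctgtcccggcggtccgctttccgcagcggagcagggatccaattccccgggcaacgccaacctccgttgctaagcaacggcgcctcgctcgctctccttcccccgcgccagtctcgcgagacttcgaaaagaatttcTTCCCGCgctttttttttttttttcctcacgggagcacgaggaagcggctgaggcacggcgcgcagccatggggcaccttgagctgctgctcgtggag
CACGTG, which reads the same on both strands, was present in Hormad1, Sycp1 and Mov10l1, and a GCGGGAA element on either strand in Hormad1 and Smc1b. The promoter of Dazl, which was also called, held neither motif. All 16 tested germline genes were found in the RefSeq table. CACGTG was in a promoter of 10 of them, in 5 of the 7 called and 5 of the 9 not called, and of 11.3% of the 11631 tested genes with a promoter in the table (7.15% of all 32851 promoters). GCGGGAA on either strand was in 5 of the 16, in 2 of the 7 called and 3 of the 9 not called, and in 9.34% of tested genes. The motifs were counted separately, and a match of letters is a description of the window only.

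Naive pluripotency genes were also higher in treated cells. Of 16 tested, 10 rose and 0 fell, against 3.45% and 4.31% of all genes, with a median log2 fold change of 0.64. Fgf4, the growth factor that acts through ERK in early embryos, rose from 24.6 and 20.6 to 48.2 and 56.1 CPM (log2 fold change 1.19, SE 0.14), and Dppa2, a chromatin protein of pluripotent cells, from 10.03 and 8.91 to 19.04 and 18.4 CPM. The transcription factor gene Esrrb rose from 190 and 176 to 328 and 251 CPM. Tdh, Dppa4, Tcl1, Tfcp2l1, Tbx3, Nr0b1 and Zfp42 completed the group, with log2 fold changes from 0.41 for Zfp42 to 1.25 for Tcl1. Nanog had 14 and 13.9 CPM untreated and 22.5 and 16.7 CPM treated and was not called (adjusted p = 0.082), nor was Klf2 with 5.54 and 5.07 CPM untreated and 11 and 11.4 CPM treated (adjusted p = 0.069). Of 10 core and formative pluripotency genes, Tdgf1 and Otx2 rose. Pou5f1, the gene of OCT4, had 48.6 and 56.3 CPM untreated and 67.8 and 61.5 CPM treated (adjusted p = 0.10). The calls of the naive group rested on the pairing and on both pairs: 0 of 16 were called without the term for pairs, with a median of 0.65, and 1 and 3 without replicate 1 and without replicate 2 of both arms. In bulk libraries, a larger share of cells in a state and more RNA per cell cannot be told apart.

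**Figure D4:**
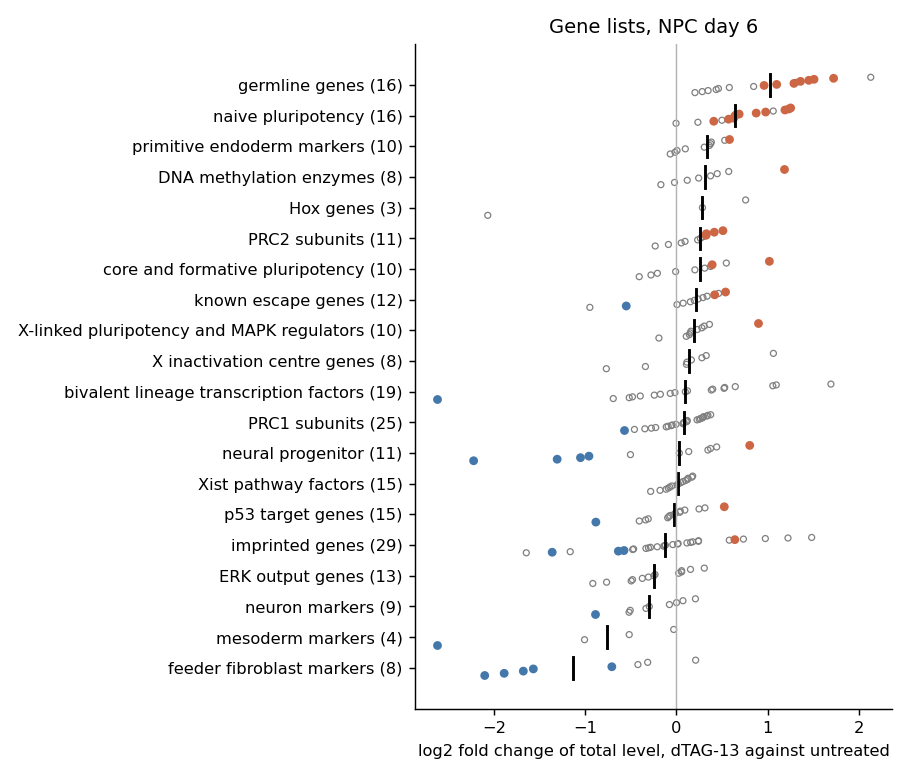
Log2 fold change of total level on NPC day 6, dTAG-13 against untreated (horizontal axis), for each tested member of 20 gene lists (the number tested is given beside the name); filled points passed the test at an adjusted p of 0.05 (red higher, blue lower), open points did not, and the black bar is the median of the list. Germline genes (median 1.03) and naive pluripotency genes (0.64) lie to the right, and feeder fibroblast markers (-1.14) to the left.

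Markers of neural progenitors were partly lower, and partly near the detection limit in both arms. Of 11 tested, 4 fell and 1 rose, against 4.31% and 3.45% of all genes, with a median of 0.03. Without replicate 1 of both arms 0 were called by edgeR and the median was -0.74, and without replicate 2 of both arms 4 were lower and the median was 0.34. Nes, the intermediate filament nestin (3:87971092-87980451, plus strand), had 269 and 120 CPM untreated and 58.8 and 24.9 CPM treated (log2 fold change -2.22, SE 0.25, adjusted p = 0.0021). Its mean on day 0 was 18.6 CPM untreated and 12.8 CPM treated. Cdh2, N-cadherin, fell from 229 and 145 to 94.0 and 57.4 CPM, Vim, vimentin, from 115 and 48.8 to 48.6 and 27.4 CPM, and Sox11, a transcription factor, from 45.2 and 40.7 to 20.2 and 24.3 CPM. The adhesion gene Ncam1 rose from 227 and 200 to 390 and 354 CPM. Without the term for pairs none of these 5 was called. Fabp7, Hes5, Neurog2 and Pou3f2, genes typical of established progenitors, had at most 6 fragments in any of the 4 libraries, Zic1 had 0 in all of them, and Pax6 had 6 to 13 fragments. These members were thus nearly absent in both arms, whereas Nes, Cdh2, Vim, Sox11 and Ncam1 of the same list were detected in all 4 libraries. The label NPC describes the protocol and day here, and cell identity was not tested. Sox1 and Sox2 were listed at 0 in all 58 libraries. Their spans lie wholly inside longer genes on the same strand in the deposited annotation (Gm5607 and Sox2ot), so the counts say nothing about these genes.

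Fibroblast markers moved with the neural genes that fell. Of 8 tested, 5 fell and 0 rose, against 4.31% and 3.45% of all genes, with a median log2 fold change of -1.14. Without replicate 1 of both arms 0 were called by edgeR, and without replicate 2 of both arms 3 fell. The summed level of the 10 markers was 432 and 189 CPM untreated and 130 and 89.4 CPM treated. Thbs1, a matrix glycoprotein, fell from 219 and 85.1 to 48.1 and 39.0 CPM, and the collagen genes Col5a2, Col1a2 and Col1a1 and the fibrillin gene Fbn1 fell as well. The defining markers Lum and Dcn were at or near 0 in every library, with at most 1 and 14 fragments. Nes, Vim and Cdh2 are expressed by fibroblasts too, and the part of fibroblasts in their fall was not tested. The fibroblast sum, Nes, Vim and Cdh2 were also higher in replicate 1 than in replicate 2 within each arm, and without the term for pairs 0 fibroblast markers were called. Primitive endoderm markers differed by replicate number, with summed levels of 520 and 2117 CPM untreated and 845 and 2731 CPM treated. Of 10 tested, Lama1, a laminin subunit, was called higher, with 422 and 1831 CPM untreated and 721 and 2396 CPM treated, ranges that overlap.

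**Figure D5:**
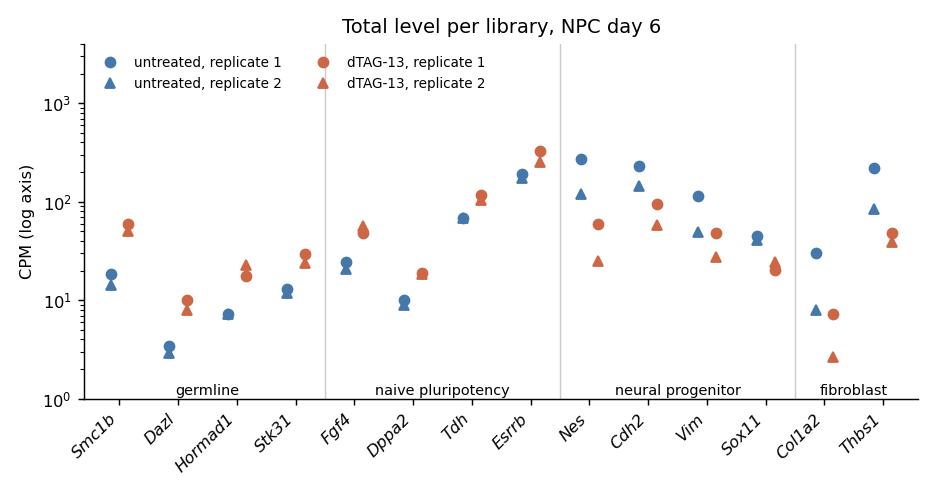
Total level (CPM, logarithmic vertical axis) of 14 genes of the germline, naive pluripotency, neural progenitor and fibroblast lists in the 4 NPC day 6 libraries; colours mark the arms and symbols the replicates. Smc1b and Fgf4 are higher in both treated libraries, whereas Nes is lower in both (58.8 and 24.9 CPM against 269 and 120 CPM) and lower in replicate 2 of each arm.

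Genes with the largest changes overall came partly from these groups. Among the 1090 genes with an adjusted p under 0.05, no overlap between arms (49.2% of all tested genes do not overlap) and at least 5 CPM in an arm, the 10 largest rises included that of Nlrp4f, an oocyte-expressed NLR gene, from 14.4 and 16.1 to 57.0 and 46.5 CPM, and those of Smc1b, Gpa33, Aire, Usp26, Ccdc172, C330046G13Rik, 4930467D21Rik and Dazl. Usp26, a testis-expressed ubiquitin protease on the X (X:51753958-51801233, minus strand), rose from 18.7 and 19.8 to 58.2 and 62.1 CPM. Aire and Dnmt3l overlap around their start sites on opposite strands, which the counting kept apart, and both rose, Dnmt3l, a cofactor of DNA methyltransferases, from 29.8 and 28.6 to 59.1 and 74.7 CPM.

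The largest falls were those of Kynu, an enzyme of tryptophan breakdown, from 29.1 and 11.8 to 5.63 and 1.33 CPM (log2 fold change -2.63, SE 0.23), and of T, the mesoderm gene brachyury, from 40.0 and 9.70 to 9.04 and 0.415 CPM. The others were Macc1, Adamts5, Pcdh7, Prss23, Me3, Nes, Pcdh11x and Synpo2l. In 10 of these 10 genes, replicate 1 was higher than replicate 2 in the untreated arm and also in the treated arm. Without the term for pairs 8 of the 10 rises, but not that of 4930467D21Rik, and of the falls only Adamts5, were called. Over all called autosomal genes, the median change was 1.66-fold among the 438 that rose and 1.81-fold among the 653 that fell.

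In the degron line that also carries the SPEN SPOC mutation, the same treatment and day were measured in libraries and controls of their own, whose 2 replicates are different clones (F10 and F6). CPM in this paragraph were scaled to library size only. The treated library of F10 stood apart: its summed Cast level over the genes with a ratio was 2646 CPM, against 4037 CPM untreated. In F6 that level was 4972 CPM untreated and 4977 CPM treated. The median ratio was 0.328 untreated and 0.579 treated in F10 and 0.402 and 0.500 in F6. Of the line's 16 germline genes tested 0 were called (median log2 fold change 0.18) and of 16 naive pluripotency genes 1 (median -0.06), with 6.75% of all genes called in either direction. Of the allelic ratios, 103 rose and 0 fell there, with 0.969% of all genes rising, a count that includes the F10 library with the low Cast level. Within the clones, the median difference of log2(CPM + 0.5) was -0.06 in F10 and 0.32 in F6 for germline genes, and -0.32 and 0.17 for naive pluripotency genes. The difference between the lines was not tested. On NPC day 3 of the line without that mutation, 2 germline genes and 1 naive pluripotency gene were called higher (0.217% of all genes), with medians of 0.41 and 0.51.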

How the data were processed

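ChrRNA-seq counts of 58 libraries were used as deposited. From the submitters' processing notes and the published methods, the authors discarded ribosomal RNA pairs (Bowtie2 2.3.2), aligned the remainder to an mm10 genome masked at strain differences (STAR 2.4.2a), split fragments by allele and counted fragments over whole transcript spans, introns included, on the annotated strand (featureCounts). No molecular identifiers are described there, so 95% Wilson intervals cover counting error only. The deposited counts are raw, with all, Cast and Dom fragments for 22556 genes per library, and replicates were not pooled. The deposited allelic ratio is a fraction for X-linked genes that the authors had filtered; recomputing it from the counts gave the same values to 5.55e-16. A gene lying wholly inside another on its strand is counted at 0, which holds for 8 of 352 named or listed genes.

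Members and gene lists were chosen with earlier results of these data known. Groups came from the labels. Tests across genes used edgeR 4.0.16 quasi-likelihood fits (R 4.3.3) over the 16 libraries of the line (untreated and treated on ES day 0, ES day 1, NPC day 3 and NPC day 6), with 1 term per pair of parallel cultures and 1 treatment term per day, and Benjamini-Hochberg adjustment at 0.05 over all genes. Allelic tests compared Dom with Cast fragments in 13261 genes with a mean of at least 10 allelic fragments per library. Total counts were tested after filterByExpr and TMM normalization, and allele levels with the total's scaling. Pairs were kept because the study grew treated and untreated cells in parallel; differences between replicates 1 and 2 correlated between arms by 0.398, 0.683, 0.202 and 0.342 over 15654 genes in the order of the days above. Medians were compared by an exact permutation test over libraries, and the SPOC degron line was fitted in the same way over its own 16 libraries, whose replicates are 2 clones. The scripts were tested on simulated data.

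Named were the 8 genes with the largest rise of the ratio (called, no overlap, at least 100 allelic fragments in every library), the 6 with the highest untreated ratio (at least 100), the 6 with the smallest change (at least 400), list members with a ratio, the 10 largest rises and falls of total level (called, no overlap, 5 CPM), and up to 4 called members per list. Genes named beyond this rule (Pola1, Ddx4, Tdrd1, Nanog, Klf2, Pou5f1, further list members, those with a changed Cast level, and Jarid2), the values of the SPOC degron line and the check of overlapping genes were chosen after values were seen. Some genes that meet the rule or stand in a list are not reported here. Promoters came from RefSeq. Alternatives tried were no pair term, the 4 libraries alone, all 58 libraries, limma 3.58.1 on the ratios, DESeq2 1.42.0, other scalings and filters, and leaving out each library or pair.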

Additional observations from a re-analysis of the deposited data

Results flagged for a closer look

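The effect of dTAG-13 on the allelic ratio on NPC day 6 was tested against that on NPC day 3 as an interaction in the edgeR fit, and 39 of the X-linked genes with a ratio differed, all with the larger log2 odds ratio on day 6. Among the genes named for their rise, the log2 odds ratio was larger by 2.82 for F8, 1.56 for Zfp182 and 1.53 for Maoa. It was larger by 1.45 for Hprt, 1.38 for Rbm3, 0.90 for Shroom4 and 0.88 for Tspan7. Genes near silence in both arms were among them, with 1.28 for Hs6st2 and 1.25 for Gpc4. Of the other escape genes, the difference was 0.85 for Ddx3x, 0.61 for Kdm6a and 0.52 for Utp14a, and the MAPK regulators Araf and Klhl13 by 0.99 and 0.84.

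Against ES day 1, the effect on the ratio was larger in 100 of these genes. The difference of the log2 odds ratio was 4.44 for F8, 2.02 for Zfp182, 2.00 for Maoa, 1.94 for Hprt, 1.75 for Tspan7, 1.59 for Rbm3, 1.56 for Shroom4 and 1.34 for Htatsf1. It was 1.72 for Hs6st2, 1.64 for Eda, 1.41 for Gpc3, 1.40 for Dmd and 1.38 for Gpc4. Among the escape genes and others with a high untreated ratio it was 1.22 for 1810030O07Rik, 1.03 for Ddx3x, 0.90 for Atp6ap2, 0.76 for Rpl10, 0.76 for Zfx, 0.75 for Utp14a and 0.73 for Kdm6a. Chic1, the gene nearest to Xist, differed by 1.94, Stag2 by 1.53, Klhl13 by 1.42 and Araf by 1.20.

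For total level, 3 genes responded differently on day 6 than on day 3 (0.0192% of those tested), among them Smc1b with a log2 fold change higher by 1.12. Against ES day 1, 185 genes differed (1.18% of those tested). The germline genes in this set were Smc1b (1.72), Dazl (1.72), Hormad1 (1.53) and Stk31 (1.1), and the pluripotency genes Fgf4 (1.31), Tdgf1 (1.29), Dppa2 (0.99) and Tdh (0.78). Other genes with a higher effect on day 6 were C330046G13Rik (1.88), Nlrp4f (1.77), Gpa33 (1.66), Ccdc172 (1.50), 4930467D21Rik (1.42), Usp26 (1.32), Klhl13 (0.79) and the imprinted receptor gene Igf2r (0.63). The effect was lower on day 6 for the fibroblast markers Col1a1 (-4.60), Col5a2 (-2.44) and Thbs1 (-2.18), for Nes (-2.11) and Cdh2 (-1.25), for the imprinted genes Usp29 (-1.38) and Sgce (-1.09), for the malic enzyme gene Me3 (-2.60) and for Mid1 (-0.67). These values also hold the effect on ES day 1, where the fibroblast list had a median log2 fold change of 0.48, against -1.14 on day 6. The arms compared on day 6 have different levels of the fibroblast markers, and the part of fibroblasts in these differences was not tested. Groups of 2 libraries allow no test for single outlying libraries.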

How the results depend on the processing

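All counts below are of genes with an adjusted p under 0.05. For leaving out libraries, 3 ranges are given in this order: without replicate 1 or 2 of both arms, without 1 untreated library, and without 1 treated library. A single library left out ended the pairing, so those fits had no pair term, and the lone library of its arm is assumed to vary like the other groups. The 153 called allelic ratios became 12 with limma on the ratios (183 at an unadjusted p under 0.05), and 78 to 121, 83 to 129 and 116 on leaving out, lowest without replicate 1 of both arms or untreated replicate 1. The difference of the median ratio, 0.153, was 0.145 and 0.160 on leaving out a pair, and 0.145 to 0.156 with other summaries or deeper genes. The 123 autosomal ratios became 43 without the replicate block, 4 with all 58 libraries, 2 with limma, and 32 to 67, 5 to 30 and 13 to 23 on leaving out. The larger effects on day 6 than on day 3 (39) became 0 with limma (34 unadjusted), and 7 to 31, 2 to 26 and 15 to 22. Those against ES day 1 (100) became 0 with limma (87 unadjusted), and 41 to 83, 29 to 73 and 69 to 72. The 149 Dom levels became 59 to 106, 39 to 85 and 70. The 19 Cast levels became 1 without the block, and 1 to 4, 0 to 1 and 0 on leaving out (14 or more unadjusted).

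Of 1091 autosomal genes, 40.1% were higher. Without the replicate block 52 were called (33 higher, 19 lower), with the 4 libraries alone 1744 with it (727 and 1017) and 392 without it, with all 58 libraries 0 by edgeR (683 at an unadjusted p under 0.05), and on leaving out 46 to 275, 1 to 38 and 2 to 5. For the X the 123 became 8 without the block, 43 with the 4 libraries alone and no block, 0 by edgeR with all 58 libraries (66 unadjusted), and 5 to 27, 0 to 5 and 1 to 2 on leaving out (93 or more unadjusted). The block changed none of the other counts above by more than 1.5 times, and other scalings, DESeq2 and other filters none of them. Counts within gene lists moved by more: without the block the calls went from 10 to 0 for naive pluripotency, 7 to 4 for germline, 5 to 0 for fibroblast, 5 to 0 for neural progenitor, 4 to 0 for imprinted, 4 to 0 for PRC2, 3 to 0 for escape and 2 to 0 for core pluripotency genes, and from 1 or 2 to 0 in 6 further lists. With DESeq2 they went from 4 to 2 for PRC2, 1 to 0 for PRC1, 2 to 1 for core pluripotency, 3 to 2 for escape, 2 to 1 for p53 targets, 1 to 2 for DNA methylation and 0 to 2 for X inactivation centre genes. The value for Lama1 turned negative without untreated replicate 1 (-0.23) and without treated replicate 2 (-0.64).

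Limits are the 2 cultures per arm from 1 line, the fragments per gene, and an annotation in which nested genes lose their counts. limma could not be fitted for genes that had no allelic fragments in some libraries. The cause of the changes between settings was not tested.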

Other observations

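Genes of the Polycomb complexes gave 5 calls, against 3.45% of all genes higher and 4.31% lower. Of 25 PRC1 subunit genes tested, only Phc2 was called, lower at 23.6 and 25.4 CPM treated against 40.9 and 32.2 CPM untreated (log2 fold change -0.58), and the median of the list was 0.08. Of 11 PRC2 subunit genes 4 rose and 0 fell, with a median of 0.26: Ezh1 from 35.9 and 39.5 to 52.8 and 47.3 CPM, Suz12 from 522 and 518 to 692 and 614 CPM, Mtf2 from 352 and 370 to 442 and 464 CPM, and Phf19 from 12.9 and 11.3 to 19.1 and 15.3 CPM. Jarid2, which guides PRC2, had 1540 and 6496 CPM untreated and 2829 and 4032 CPM treated, so its replicates differed by more than its arms. Neither list had a called gene without the term for pairs (0 of 25 and 0 of 11).

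Bivalent lineage transcription factors and Hox genes are targets that Polycomb complexes are known to hold silent, and many of them could not be tested. Of 40 bivalent genes 19 could be tested, of which T fell and 0 rose (median 0.10). Of 39 Hox genes 3 could be tested, with 0 called by edgeR, also 0 at an unadjusted p of 0.05 (median 0.29). With 7.76% of all genes called in either direction, these counts show nothing particular to such targets. Of 29 imprinted genes tested, Igf2r rose from 65.0 and 63.1 to 101 and 98.6 CPM, whereas Usp29 fell from 40.8 and 16.9 to 13.3 and 8.29 CPM, Gnas from 83.5 and 78.8 to 53.2 and 55.7 CPM, and Sgce fell as well (log2 fold change -0.64, list median -0.12).

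Over all genes tested, 3.45% had a higher and 4.31% a lower total level. The lists in this paragraph hold few genes, and their counts were not tested against these shares. Genes of the Xist pathway had 0 calls by edgeR among 15 tested (0 at an unadjusted p of 0.05, median 0.02), and the X inactivation centre 0 among 8 (4 unadjusted, median 0.14). Of 12 known escape genes, the totals of Utp14a and 1810030O07Rik rose, and Mid1, at 724 and 670 CPM untreated and 483 and 468 CPM treated, fell (median 0.22). Of 15 p53 targets, the receptor gene Eda2r rose (log2 fold change 0.52) and Perp, a desmosome gene, fell (-0.88), with a median of -0.03. ERK output genes had 0 calls by edgeR among 13 (5 unadjusted, median -0.25). Of 8 DNA methylation enzymes Dnmt3l rose (median 0.31). Of 4 mesoderm markers tested T fell (median -0.76), and of 9 neuron markers Syt1, a synaptic vesicle protein gene, fell from 49.2 and 68.5 to 30.2 and 32.2 CPM (median -0.30).

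On the Cast X, which carries no induced Xist, the 13 genes with a higher level ran from Usp9x (log2 fold change 0.41) to Tex11 (1.18), a meiosis gene, and included Nr0b1 (1.08), Mcf2 (1.02), Fmr1nb (0.96), Pnma5 (0.80), Klhl13 (0.75), Mtm1 (0.72) and Xk (0.70). The 6 lower genes were Cask (-0.55), Msn (-0.56), Tmem47 (-0.60), Zfp280c (-0.62), Dock11 (-0.84) and Heph (-1.05). These genes were listed after their values were seen.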
